A study of Mus with 14 samples.

Results

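Early Gata2-positive erythroid progenitors are marrow cells that have switched on the erythroid factor Klf1 while they still carry transcripts of Gata2, a factor of stem and early progenitor cells. They were picked by raw counts of unique molecular identifiers (UMIs, one per captured transcript molecule). A member had at least 1 UMI each of Klf1, Gata2 and Car1, at most 2 of Pf4, and 0 of Ermap and Ms4a2. Cells first had to hold at least 1000 UMIs and 500 genes, with under 10% mitochondrial UMIs. The rule found 1566 members among 70038 such cells (2.24%) from 14 libraries. The rule uses measured counts, so the levels of those 6 genes in the members only describe the choice.

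Each library held single-cell 3' RNA profiles of lineage-negative, Kit-positive, CD45.2+ donor cells sorted from the marrow of 1 mouse. Donor cells had first competed with CD45.1+ marrow in aged, lethally irradiated recipients, which were given a single poly(I:C) injection a month later. Poly(I:C) is the usual inducer of the interferon-responsive Mx1 promoter of the MxCre recombinase. Marrow of these animals was passed to secondary recipients, also aged and irradiated, that were harvested at 20 weeks.

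The 4 groups were named MxCre (3 mice), Dnmt3a (4 mice), Dnmt3a;Tnfr1KO (3 mice, written Tnfr1KO-labelled here) and Dnmt3a;Tnfr2KO (4 mice, written Tnfr2KO). All shared the transplantation, the poly(I:C) and the sort. The labels give neither the Dnmt3a allele nor whether the MxCre transgene is carried outside the first group. Dnmt3a encodes a DNA methyltransferase often mutated in clonal haematopoiesis. Tumour necrosis factor signals through Tnfr1 (gene Tnfrsf1a) and Tnfr2 (gene Tnfrsf1b). No label ties a mouse to the primary recipient its marrow came from. If mice of a group share a donor, p-values are too small.

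Red cells arise from multipotent progenitors that pass from Gata2 to Gata1 as the leading GATA factor. Klf1, switched on at commitment, activates genes of the red cell membrane, of heme synthesis and of the globins. Early cells of this route share genes with megakaryocyte and mast cell progenitors, since Gata1 and Gata2 also act in those lineages. Car1 encodes a carbonic anhydrase present from the erythroid colony-forming stages onward. Ermap, a red cell membrane protein, Pf4, a platelet chemokine, and Ms4a2, a chain of the IgE receptor of mast cells and basophils, served to leave out later erythroid, megakaryocyte and mast cells.

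Members were uneven across libraries. MxCre replicates 1 to 3 gave 367, 109 and 112, and Dnmt3a replicates 1 to 4 gave 39, 110, 18 and 1. Tnfr1KO-labelled replicates 1 to 3 gave 43, 123 and 60, and Tnfr2KO replicates 1 to 4 gave 192, 241, 87 and 64. Expression was compared over the 12 libraries with at least 20 members, so the Dnmt3a group was reduced to replicates 1 and 2. In those 12 libraries, the members' UMIs summed to between 444701 and 6249287, and the median member held 7598 to 22338 UMIs.

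Dnmt3a replicate 1 stood apart. Only 26.9% of its barcodes passed the cell filter, and its members had a median of 22338 UMIs against at most 14670 in any other tested library. Histone genes took 9507 CPM (UMIs per 1000000 UMIs of the cells summed), against 1801 to 6302 in the other 11. Ribosomal protein genes took 28.5%, against 36.0% to 38.2%. Calls that use the Dnmt3a group are therefore given with their adjusted p without it where that ends the call. Tnfr1KO-labelled replicate 1 also differed, with 5473 CPM of immediate early genes in its members against 1278 to 2289 elsewhere. Library pairs shared 1 to 17 kept barcodes (median 6), and 1 member barcode recurred, in 1 pair. Of the members, 91 (5.81%) were called doublets, against 4.49% of all kept cells, and they were kept here because the rule does not remove them.

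Counts of the rule genes in single members were low. The median member had 2 Klf1, 3 Gata2 and 9 Car1 UMIs, and 48.9% had a single Klf1 UMI. Pf4 was at 0 in 88.6% of members. Cells just outside the Klf1 threshold (0 UMIs, all else met, 1877 cells) had 735 CPM of Apoe and 2615 CPM of the granulocyte enzyme Mpo. Members just inside it (1 UMI, 765 cells) had 1851 and 1140 CPM. At the Car1 threshold, Gm15915 was 40.6 CPM in the 897 cells without a Car1 UMI and 78.9 CPM in the 204 members with 1. At the Ermap threshold the 396 cells with 1 UMI had 485 CPM of the biliverdin reductase Blvrb, and members, with none, had 273 CPM. At the Ms4a2 threshold the 94 cells with 1 UMI had 139 CPM of the mast cell protease Cpa3, against 49.0 CPM inside.

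The label was set beside Apoe and Gm15915, its markers outside the rule. Apoe, which encodes a lipid carrier protein, averaged 1842 CPM ± 391 (SD, n = 12 libraries) in the members and 281 CPM in all other kept cells. Gm15915, a long non-coding RNA gene (GRCm38 chromosome 10, 93674218 to 93683322), averaged 219 ± 66.5 CPM against 26.9 CPM. Both were higher in the members than in the other cells of the same mouse in 12 of 12 libraries. At a common depth of 5000 UMIs per cell, 98.0% of members held an Apoe UMI and 60.7% a Gm15915 UMI. Cebpe-positive granulocyte cells, chosen without Klf1 and Gata2 UMIs, held them at 9.96% and 0.41%. Median depths before thinning were 12116 UMIs in members and 28400.5 in those cells. For Gata1 these shares were 37.1% and 0.32%, and for Zfpm1, the Gata1 cofactor, 52.4% and 3.15%. Both markers were thus more frequent in members than in those cells. Members needed Klf1 and Gata2 and those cells lacked them, so the contrast describes the choice and does not test the label. Gm15915 did not separate members from Ermap-positive erythroid cells, where it averaged 232 CPM and was higher in 9 of 12 libraries. Apoe averaged 640 CPM in these, 725 CPM in cells with 3 or more Pf4 UMIs and 965 CPM in Ms4a2-positive, Klf1-negative cells.

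Genes with a UMI in at least 25% of members were ranked by the ratio of member to other-cell CPM, after 10 CPM was added to each. Apoe led with 6.36, followed by Gm15915 with 6.21 and Csrp3, a LIM domain protein known from muscle, with 6.19. Csrp3 averaged 144 ± 53.2 CPM in members and 160 CPM in Ms4a2-positive, Klf1-negative cells, but 43.7 CPM in Ermap-positive cells, so it was shared with mast cell-type progenitors. Mfsd2b, the sphingosine-1-phosphate exporter of red cells and platelets, averaged 123 ± 21.2 CPM, against 80.4 CPM in cells with 3 or more Pf4 UMIs. Others among the 25 leading genes were the water channel Aqp1 (130 CPM), the interferon-induced Ifitm1 (807 CPM), the thrombin receptor F2r (90.4 CPM), the actin-severing Scin (52.0 CPM) and the translocator protein gene Tspo2 (98.1 CPM). Of these, Aqp1 and Tspo2 were higher still in Ermap-positive cells, at 223 and 144 CPM, each in 12 of 12 libraries. F2r averaged more, 123 CPM, in cells with 3 or more Pf4 UMIs. In Ms4a2-positive, Klf1-negative cells Scin averaged 49.1 CPM and Ifitm1 640 CPM, so these were shared with neighbouring cell sets. Egr1, an immediate early factor, also ranked high, but ran from 23.2 to 533 CPM over the libraries, the highest being Tnfr1KO-labelled replicate 1. These are properties of cells chosen by measured counts and were not tested.

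The nearest later stage was taken as cells that met the same rule but carried at least 1 Ermap UMI, with no requirement for Gata2 (3497 cells). They were deeper, with a median of 27832 UMIs against 12116 in the members, and since Ermap separates the sets by counts, values below are descriptions. Members kept transcripts known from stem and multipotent cells. Ctla2a, a cysteine protease inhibitor, stood at 476 CPM in members and 41.8 CPM in Ermap-positive cells, a log2 difference of 3.23 in size. The intermediate filament Vim stood at 629 against 114 CPM, the homeobox gene Meis1 at 76.4 against 10.3 CPM, and Angpt1, a ligand of stem cell niches, at 141 against 30.7 CPM. Each of these 4 was lower in Ermap-positive cells in 12 of 12 libraries.

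The erythroid genes were ordered by stage. Regulators were already near their later level: Gata1 stood at 82.0 CPM in members and 112 CPM in Ermap-positive cells, Tal1 at 61.5 and 78.9 CPM, and Lmo2 at 359 and 334 CPM. Some receptor and iron uptake genes were lower in members. Epor, the erythropoietin receptor, stood at 30.1 against 68.3 CPM, and Tfrc, the transferrin receptor, at 32.3 against 128 CPM. The whole list of 25 erythropoietin and Kit signalling genes went the other way, at 1064 CPM in members and 809 CPM in Ermap-positive cells (higher in members in 12 of 12 libraries). The 27 heme synthesis and iron uptake genes summed to 3498 against 5914 CPM. Single genes of the late membrane and of heme synthesis differed more. Slc4a1, the anion exchanger band 3, stood at 0.07 against 23.7 CPM, Alas2, the erythroid first enzyme of heme synthesis, at 0.46 against 14.6 CPM, and Rhd, a Rhesus antigen, at 5.01 against 95.9 CPM. The metallothionein Mt2 stood at 18.3 against 247 CPM. Rhd and Mt2 are among the genes in the plot of stage genes.

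**Figure D1:**
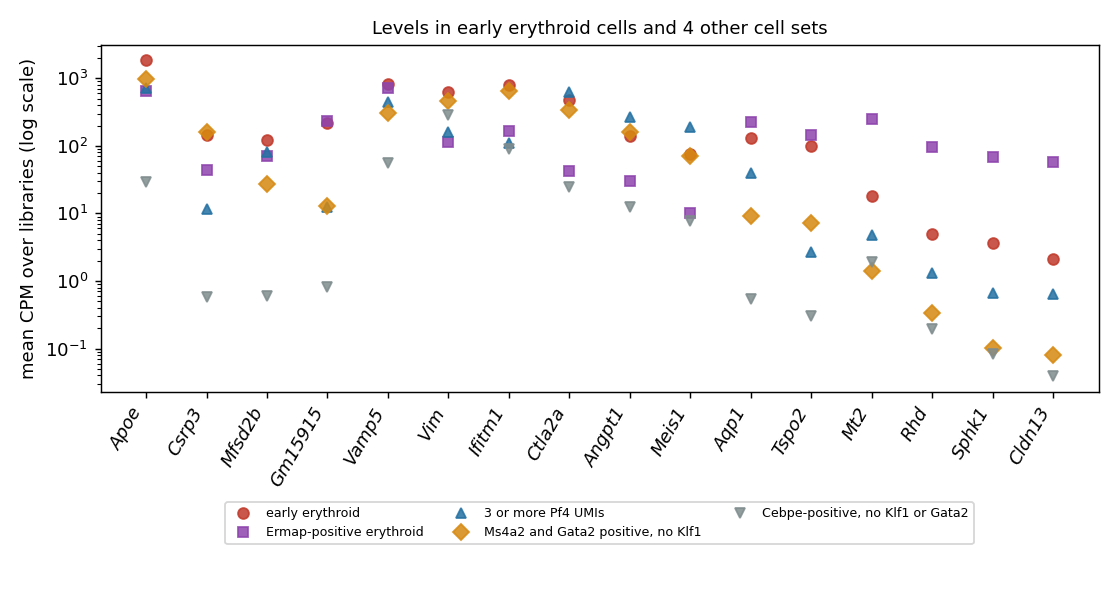
Mean CPM (log axis) over 12 libraries of 16 genes in 5 cell sets. Members, Ermap-positive erythroid cells and cells with 3 or more Pf4 UMIs are shown. The others are Ms4a2-positive cells without Klf1, and Cebpe-positive granulocyte cells without Klf1 and Gata2. Ctla2a, Vim and Meis1 are higher in members than in Ermap-positive cells, and Aqp1, Rhd and Mt2 are lower.

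Gene lists gave the same picture per mouse, with rule genes left out of the sums. The 20 stem and multipotent progenitor genes summed to 1382 CPM in members, 336 in Ermap-positive cells and 1878 in cells with 3 or more Pf4 UMIs. The 28 erythroid commitment genes summed to 4048, 5994 and 2844 CPM, and the 4 globin genes to 166 CPM in members against 4525 in Ermap-positive cells. Members exceeded Ermap-positive cells in 12 of 12 libraries for stem, megakaryocyte, mast cell, interferon response and immediate early genes. The same held for T and NK, monocyte, B lineage, granulocyte and dendritic cell genes, so the excess was not particular to stem genes. Their median log2 differences were 2.33, 1.89, 1.47, 1.44 and 0.56, against 2.05 for stem genes. Members were lower in 12 of 12 for commitment, late erythroid, globin, heme and S phase genes. The globin sum in members was 1392 CPM in MxCre replicate 1 and 21.7 to 121 CPM in the other 11 libraries. Few cells carried the globin UMIs. At 5000 UMIs per cell, 76.0% of members and 76.6% of Ermap-positive cells had none, and 1.58% and 7.46% had 3 or more. Late erythroid genes had a median of 3 UMIs per cell in both sets, with 3 or more in 57.8% and 58.3%.

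Genes of other lineages were present at low levels in most cases. Megakaryocyte genes other than Pf4 summed to 843 CPM, against 3550 CPM in cells with 3 or more Pf4 UMIs, and 24 of 24 had a UMI. Mast cell and basophil genes summed to 313 CPM against 2507 CPM in Ms4a2-positive cells, and 14 of 17 had a UMI. Prss34, Alox15 and Tph1 were at 0. Granulocyte genes summed to 6126 CPM against 48482 CPM in Cebpe-positive cells. They ran from 2140 to 9178 CPM over the libraries, with all 17 present. At 5000 UMIs per cell, 23.4% of members had an Mpo UMI and 17.1% a Cpa3 UMI. Among members chosen on their full counts and then thinned, the Mpo share was 27.5%, against 94.4% of Cebpe-positive granulocyte cells (47.7% and 95.5% without thinning). How much of this is RNA free in the droplets was not tested. Of other blood cell lists, 8 of 14 T and NK cell genes, 11 of 16 B lineage genes and 6 of 10 dendritic cell genes had a UMI. Their sums ran over 321 to 503, 18.3 to 52.5 and 440 to 810 CPM, of which Nkg7, a granule protein of NK cells, averaged 394 CPM and Cst3, a protease inhibitor, 351 CPM. Cd3e, Cd3g, Ms4a1, Siglech and Xcr1, which define T, B and dendritic cells, were at 0. The part of these cells in the results was not tested.

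Car1 was higher in Ermap-positive cells (by 1.57 on the log2 scale, in 12 of 12 libraries), and members were also ordered by it at the common depth, at which 888 of them still met the rule. Members with 1, 2 to 3, 4 to 7 and at least 8 Car1 UMIs numbered 103, 155, 264 and 366. Ctla2a averaged 3.0, 3.47, 3.07 and 1.42 UMIs per cell over these bins, and Ifitm1 averaged 7.09, 6.61, 6.70 and 3.32. Both were flat up to 7 Car1 UMIs and lower above. Aqp1 went the other way, at 0.592, 0.613, 0.879 and 1.13 UMIs, as did Blvrb at 1.26, 1.49, 1.75 and 2.50 and Mt2 at 0.0583, 0.0774, 0.121 and 0.355. Klf1 kept between 1.32 and 1.41 UMIs, and Gata1 was 0.544, 0.465, 0.542 and 0.546.

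The same was seen inside single mice. In the 10 libraries with at least 10 members both at 1 to 3 and at 8 or more Car1 UMIs, Apoe averaged 12.7 ± 3.22 (SD) and 8.78 ± 2.23 UMIs, and was lower in the high-Car1 members in 10 of 10. Ctla2a (3.39 ± 0.75 and 1.37 ± 0.44), Vim, Ifitm1, Angpt1, Cpa3 and F2r were also lower in 10 of 10. Aqp1 (0.621 ± 0.140 and 1.20 ± 0.198), Blvrb and Mt2 were higher in 10 of 10. Gata2, itself in the rule, was lower in 9 of 10. Gata1, Klf1 and the proliferation gene Mki67 were each higher in 6 of 10. Since cells of 1 mouse are not replicates, no test over cells was made.

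**Figure D2:**
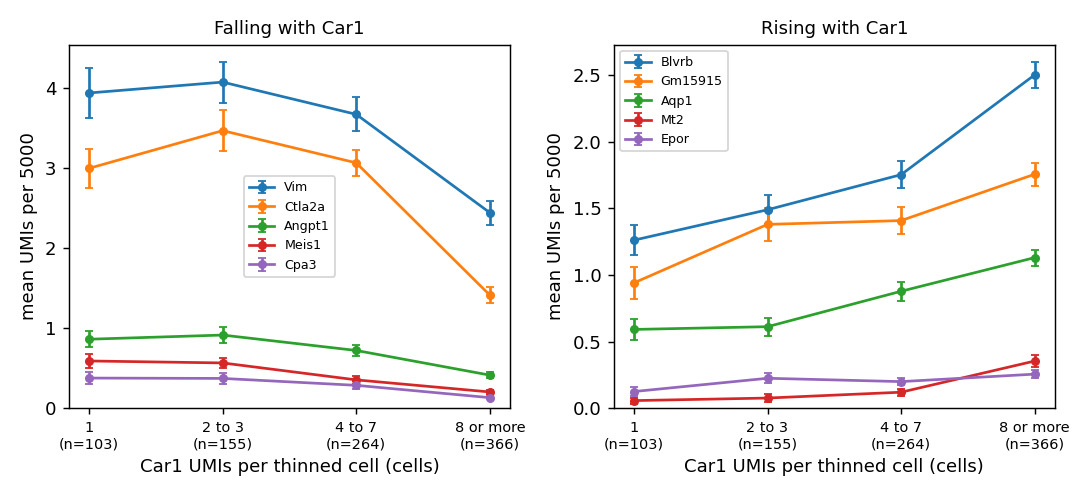
Mean UMIs per member at 5000 UMIs per cell (vertical axis) against the bin of Car1 UMIs (horizontal axis), with bars of 1 standard error over cells, for 888 members. Cells are pooled over libraries, 205 of them from MxCre replicate 1, so the bars do not measure the spread between mice. Ctla2a, Vim and Angpt1 are lowest in the bin with at least 8 Car1 UMIs, where Aqp1, Blvrb and Mt2 are highest.

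How many members each mouse had was compared as a share of kept cells. Shares in MxCre replicates 1 to 3 were 5.94%, 3.79% and 2.43%. In Dnmt3a replicates 1 to 4 they were 1.99%, 3.99%, 0.313% and 0.0176%, the last from 1 cell of 5680, with an exact binomial interval of 0.000446% to 0.0981% that covers counting error only. Dnmt3a replicates 3 and 4 were the lowest of all 14 mice, while replicate 2 lay inside the MxCre range. Tnfr1KO-labelled mice had 0.663%, 3.33% and 1.89%, and Tnfr2KO mice 2.48%, 4.08%, 1.35% and 0.940%.

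The MxCre mean was 4.05% ± 1.77 (SD, n = 3) and the Dnmt3a mean 1.58% ± 1.83 (n = 4). Tnfr1KO-labelled mice averaged 1.96% ± 1.34 (n = 3) and Tnfr2KO mice 2.21% ± 1.41 (n = 4). The Dnmt3a mean was 2.47 percentage points below MxCre, which did not pass (exact two-sided permutation p = 0.171, adjusted over 4 comparisons 0.686). The other 3 comparisons, Tnfr1KO-labelled and Tnfr2KO against Dnmt3a and against each other, differed by 0.383, 0.634 and 0.252 points (adjusted exact permutation p = 0.857 for each). The groups overlapped in every comparison, and with 3 mice against 4 the smallest p possible was 0.0571. A share also moves with the number of all other sorted cells.

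The balance of members to Ermap-positive cells does not depend on the other lineages. Its log2 ratio was -0.90, -0.85 and -0.93 in the MxCre mice. In Dnmt3a replicates 1 to 4 it was -1.83, -1.13, -2.34 and -5.88, all below every MxCre mouse. It ran from -1.56 to -0.49 in Tnfr1KO-labelled and from -1.55 to -0.62 in Tnfr2KO, both overlapping MxCre. The Dnmt3a mean was 1.90 log2 units below MxCre, where the exact permutation p of 0.0571 was the smallest possible (adjusted 0.152). Without Dnmt3a replicate 4, whose ratio rests on 1 member, the difference was -0.87. Tnfr1KO-labelled and Tnfr2KO lay 1.76 and 1.69 above the Dnmt3a mean they share (exact permutation p = 0.114 and 0.0857, both adjusted 0.152), and 0.73 and 0.66 without that replicate. At 5000 UMIs per cell the Dnmt3a and MxCre ratios overlapped, the highest Dnmt3a value being -0.26 and MxCre running from -0.34 to -0.12.

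**Figure D3:**
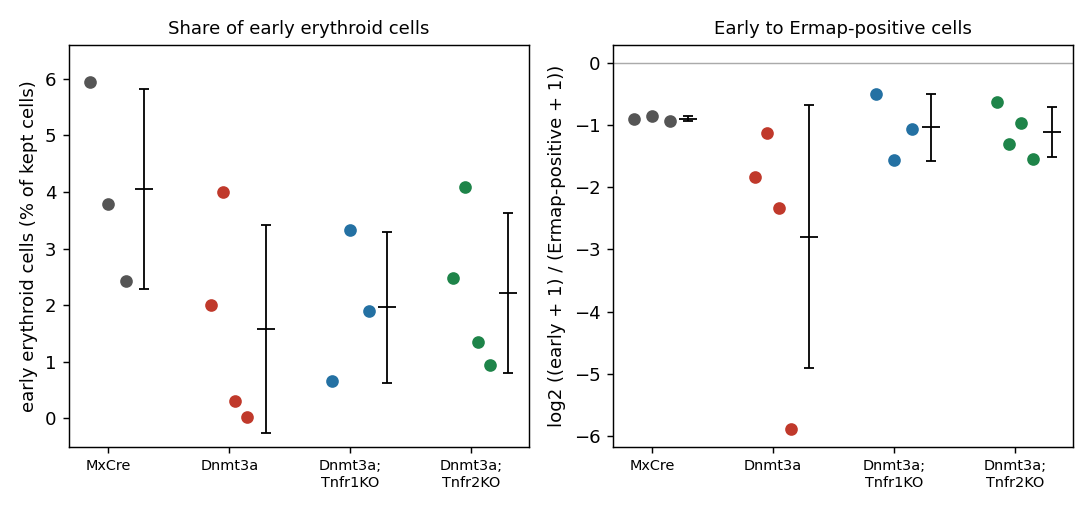
Members as a percentage of kept cells, and the log2 ratio of members to Ermap-positive cells (vertical axes), by group, with 1 point per mouse and bars of mean ± SD (n = 3, 4, 3 and 4). Dnmt3a replicate 4 is lowest in both, at 0.0176% and -5.88.

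The targeted genes were looked at first in the expression comparisons, in CPM after TMM scaling of library sizes. Tnfrsf1b stood at 7.23, 6.13 and 5.05 CPM in MxCre, 10.1 and 5.04 in Dnmt3a, 4.72, 2.89 and 3.46 in Tnfr1KO-labelled and 4.66, 2.49, 7.68 and 1.12 in Tnfr2KO. It was low everywhere and did not separate the Tnfr2KO mice. Tnfrsf1a stood at 18.9, 25 and 24.2 CPM in Tnfr1KO-labelled, within the range of 11.5 to 35.8 CPM over the other tested mice. Its log2 difference from Dnmt3a was -0.12 (adjusted p = 0.922). Reads at the 3' end outside a deleted part check nothing, so directions for the Tnfr1KO-labelled and Tnfr2KO groups rest on the labels. Dnmt3a stood at 18.4 to 21.6 CPM in MxCre and at 34.7 and 22.4 CPM in Dnmt3a replicates 1 and 2, a log2 difference of 0.45 (adjusted p = 0.446).

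Dnmt3a members were compared with MxCre members by the quasi-likelihood test of edgeR over 9276 genes, with Benjamini-Hochberg adjustment, which holds for each adjusted p below. At an adjusted p under 0.05, 80 genes were called, or 0.862% of those tested, of which 49 were higher (0.528%) and 31 lower (0.334%) in Dnmt3a. Genes whose libraries did not overlap made up 15.7% (higher) and 15.4% (lower) of all tested. At an unadjusted p under 0.05, 8.96% of all genes were higher and 7.02% lower. The calls leaned on single mice. Without Dnmt3a replicate 1 only 2 were called, and without Dnmt3a replicate 2, 810. In each of those fits the lone Dnmt3a library was taken to vary like the other groups. Without MxCre replicates 1, 2 and 3 there were 40, 16 and 30. At 5000 UMIs per cell Dnmt3a replicate 1 had 18 members and left the fit, so that setting also rests on Dnmt3a replicate 2 alone. DESeq2 called 160, of which 48 were higher and 112 lower.

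The 2 genes that passed without Dnmt3a replicate 1 were Gm43305 and Prss50. Gm43305, a long non-coding RNA gene at GRCm38 chromosome 14, 54292441 to 54297488, stood at 0.168, 0 and 2.88 CPM in MxCre and at 28.2 and 21.3 CPM in Dnmt3a. Every Dnmt3a library was above every MxCre one, with a log2 difference of 5.2 ± 0.64 (SE, adjusted p = 5.57e-04), and 5.0 without Dnmt3a replicate 1 (adjusted p = 0.0224). It was 3.97 without MxCre replicate 1 and 6.93 without MxCre replicate 3, with the call kept. Prss50, a testis serine protease gene (chromosome 9, 110857964 to 110864629), stood at 0.672, 0 and 0.721 CPM in MxCre. In Dnmt3a replicates 1 and 2 it stood at 18.8 and 22.9 CPM. It had no UMI in the 18 members of Dnmt3a replicate 3, which was not tested. Its log2 difference was 5.04 ± 0.70 (adjusted p = 0.0020). It kept the call in each edgeR refit except at 5000 UMIs per cell (adjusted p = 0.0671), and DESeq2 gave it no adjusted p.

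Mtus2, a microtubule-associated protein, stood at 19.8, 17.6 and 20.9 CPM in MxCre and at 0.722 and 0 CPM in Dnmt3a, a fall of 5.68 on the log2 scale (adjusted p = 0.0107). The meiosis gene Hormad2 and the small membrane protein gene Smim40 had no UMI in either Dnmt3a library. They stood at 9.37 to 13.4 CPM and 6.49 to 14.5 CPM in MxCre, at least 11.8-fold and 12.3-fold lower with a floor of 3 UMIs over the Dnmt3a group. All 3 genes were lower in both Dnmt3a libraries than in any MxCre library. Without Dnmt3a replicate 1, Mtus2, Hormad2 and Smim40 no longer passed (adjusted p = 0.207, 0.587 and 0.518), although the remaining library held no UMI of them. The Mtus2 difference was -8.24 without Dnmt3a replicate 1 and -4.64 without replicate 2. Hormad2 was also lost without any other 1 of the 5 libraries (adjusted p = 0.0635 to 0.115).

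Among erythroid genes the changes called were few. The globins Hba-a2, Hbb-bs and Hbb-bt fell by 4.34, 4.04 and 3.12 on the log2 scale (adjusted p = 0.0433, 0.0433 and 0.0431). Globin UMIs in MxCre replicate 1 came to 8702, of which 5804 lay in 1 cell and 94.5% in 5 cells. No other library had a member with 50 or more, and none of the 3 globin calls held without MxCre replicate 1, where the falls were 1.71, 1.17 and 1.85 (adjusted p = 0.342, 0.269 and 0.216), or without Dnmt3a replicate 1 (0.587, 0.667 and 0.762). Without Dnmt3a replicate 1 Hba-a2 fell by 5.24, and without replicate 2 Hbb-bt by 4.37. Hba-a2 and Hbb-bs were also lost without Dnmt3a replicate 2 (0.0889 and 0.0868). Gm15915 stood at 321, 244 and 293 CPM in MxCre and at 58.5 and 175 CPM in Dnmt3a, and fell by 1.28 ± 0.30 (adjusted p = 0.0433). Aqp1 stood at 167, 184 and 161 CPM against 43.3 and 111 CPM, and fell by 1.12 ± 0.26 (adjusted p = 0.0433). In both, Dnmt3a replicate 1 was much the lower, and without it the adjusted p was 0.815 and 0.796. Both calls were also lost without any 1 MxCre replicate (adjusted p = 0.0821 to 0.133). Without Dnmt3a replicate 2 the falls were 2.30 and 1.98.

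Klf1, Car1 and Gata2 are in the rule, and a threshold of 1 UMI admits a lower CPM in a deeper cell. Dnmt3a replicate 1 had the deepest members, and the part of this in their levels was not tested. Car1 stood at 1306, 1096 and 1205 CPM in MxCre and at 373 and 782 CPM in Dnmt3a, which only describes the cells chosen. Apoe, outside the rule, stood at 2352, 2173 and 2385 CPM and at 995 and 1999 CPM (adjusted p = 0.174). Of 25 commitment genes tested, 20 were negative and 1 passed (Aqp1), with a median of -0.42 against 0.013 over all genes. Of 26 heme and iron genes, 19 were negative and 0 passed, with a median of -0.26, while 6 passed at an unadjusted p in the lower direction and 3 in the higher.

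Some genes of other progenitors were higher. Irf8, a factor of monocyte and dendritic cells, stood at 13.3, 5.37 and 1.44 CPM in MxCre and at 51.3 and 28.5 CPM in Dnmt3a, a rise of 2.16 ± 0.50 (adjusted p = 0.0433). Its direction turned, to -3.02, when members needed at least 2 Klf1 and 2 Car1 UMIs, where Dnmt3a replicate 2 stood alone in its group. The call was lost without MxCre replicate 2 or 3 (adjusted p = 0.127 and 0.0997). Without MxCre replicate 1 the rise was 3.51. Of the 8 monocyte and macrophage genes tested, 8 were positive and 1 passed (Irf8), with a median of 1.86. Their summed level in members was 153, 94.9 and 61.1 CPM in MxCre and 407 and 204 CPM in Dnmt3a. Whether this comes from RNA of other cells in the droplets was not tested. Atp8b4, a phospholipid flippase, rose by 2.60 ± 0.41 (adjusted p = 0.0046), from 7.66 to 15.3 CPM in MxCre to 105 and 41.4 CPM.

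The survival gene Bcl2 rose by 1.10 and the proliferation gene Mki67 by 1.20 (adjusted p = 0.0433 for both). Mki67 stood at 705 CPM in Dnmt3a replicate 1 and 339 CPM in replicate 2, against 181 to 287 CPM in MxCre. Neither passed without Dnmt3a replicate 1 (adjusted p = 0.853 for both), where the Mki67 difference was 0.57. Nor did Irf8 (0.853) or Atp8b4 (0.518, with a difference of 1.77). Bcl2 and Mki67 were also lost without MxCre replicate 2 (0.126 and 0.159) and replicate 3 (0.125 and 0.0551), and Mki67 without MxCre replicate 1 (0.142). Of 15 stem and multipotent genes 13 were positive and 0 passed (median 0.28; 5 higher and 1 lower at an unadjusted p). Of 35 interferon response genes, 23 were negative and 0 passed (median -0.34, with 11 lower at an unadjusted p). Their summed level was 4108 CPM in Dnmt3a replicate 1 and 5200 CPM in replicate 2. The second lay within the MxCre range of 5142 to 6302 CPM.

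In the TNF and NF-kB list, 1 of 30 tested genes passed. Tnfaip2, a gene induced by tumour necrosis factor, stood at 160, 182 and 141 CPM in MxCre and at 71.5 and 80.0 CPM in Dnmt3a, and fell by 1.08 ± 0.22 (adjusted p = 0.0275). Both Dnmt3a libraries were below every MxCre one. The difference was -1.01 without Dnmt3a replicate 1 (adjusted p = 0.518) and -1.09 without MxCre replicate 1 (adjusted p = 0.0548), and the call was also lost without MxCre replicate 2 (adjusted p = 0.106).

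The Tnfr1KO-labelled and Tnfr2KO groups, called the receptor groups here after their labels, were each set against Dnmt3a, so both comparisons share the same 2 Dnmt3a libraries and their values stand side by side. With Tnfr1KO-labelled, 20 genes were called (0.216% of 9276), 11 higher (0.119%) and 9 lower (0.0970%). With Tnfr2KO, 28 were called (0.302%), 12 higher (0.129%) and 16 lower (0.172%). Genes without overlap of libraries made up 11.7% (higher) and 11.7% (lower) of all tested with Tnfr1KO-labelled, and 9.54% and 9.56% with Tnfr2KO. At an unadjusted p under 0.05, 4.88% of all genes were higher and 5.68% lower with Tnfr1KO-labelled, and 6.49% and 6.75% with Tnfr2KO. Without Dnmt3a replicate 1 the counts were 2 and 5, and without Dnmt3a replicate 2 they were 379 and 549. Leaving out Tnfr1KO-labelled replicates 1, 2 and 3 gave 11, 3 and 3, and Tnfr2KO replicate 4 gave 47. DESeq2 called 61 (52 higher, 9 lower) and 114 (100 higher, 14 lower).

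The muscle creatine kinase gene Ckm (chromosome 7, 19411094 to 19421583) separated the receptor groups from the other mice. It stood at 2.89 and 2.80 CPM in Dnmt3a and at 3.36, 4.6 and 9.37 CPM in MxCre. In Tnfr1KO-labelled it stood at 52.0, 74.1 and 92.3 CPM, and in Tnfr2KO at 114, 74.6, 37.1 and 68.1 CPM. All 7 mice of the 2 receptor groups were above all 5 others. The log2 difference from Dnmt3a was 4.69 ± 0.52 (adjusted p = 8.93e-05) and 4.72 ± 0.50 (adjusted p = 1.97e-05), and both calls held in each edgeR refit, while DESeq2 gave Ckm no adjusted p.

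Gm49980 had no UMI in either Dnmt3a library and stood at 2.18, 2.30 and 2.16 CPM in MxCre. It stood at 23.6, 24.1 and 28.8 CPM in Tnfr1KO-labelled and at 27, 48.3, 19.2 and 23.4 CPM in Tnfr2KO, at least 24.2-fold and 34.4-fold above Dnmt3a (adjusted p = 9.63e-05 and 1.97e-05). Those calls were lost at 5000 UMIs per cell and when libraries with 10 or more members, Dnmt3a replicate 3 among them, were admitted, where the fitted log2 differences were 1.98 and 2.30. The bounds thus hold for Dnmt3a replicates 1 and 2 alone, and the Tnfr1KO-labelled call was also lost with at least 2 Klf1 and 2 Car1 UMIs. Eps8l1, an actin-regulating adaptor gene (chromosome 7, 4460638 to 4480487), ran the other way against Dnmt3a. Its MxCre level is not given here, and it was not a named call of either receptor group against MxCre. It stood at 8.66 and 12.9 CPM in Dnmt3a and had no UMI in any of the 7 mice of the receptor groups, at least 13.7-fold and 30.4-fold lower (adjusted p = 0.0320 and 0.0016). The Tnfr2KO call held in the 11 alternatives that gave it a value (not in DESeq2, at 5000 UMIs, under the stricter rule or with libraries of 10 members), and the Tnfr1KO-labelled call did not hold without Dnmt3a replicate 1 or Tnfr1KO-labelled replicates 2 or 3 (adjusted p = 0.24, 0.26 and 0.16).

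**Figure D4:**
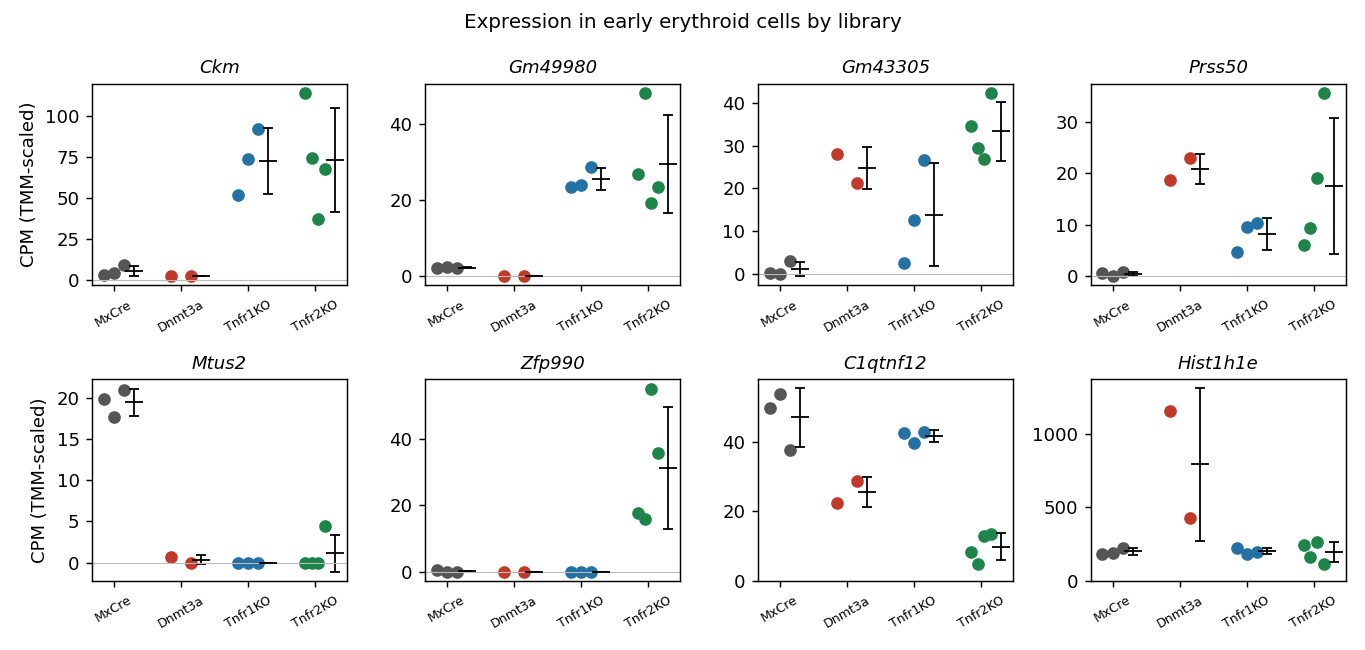
CPM after TMM scaling (vertical axes) of 8 genes in the members of 12 mice, by group, with 1 point per mouse and bars of mean ± SD (n = 3, 2, 3 and 4). Ckm and Gm49980 are high in all 7 mice of the receptor groups, Zfp990 in the 4 Tnfr2KO mice, and Mtus2 in the 3 MxCre mice.

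Several other calls against Dnmt3a concerned histone genes, which were high in the library that stood apart. Hist1h1e, a linker histone, stood at 1157 CPM in Dnmt3a replicate 1 and 425 CPM in replicate 2, against 115 to 262 CPM in the other 10 mice. It was lower by 1.97 and 2.02 on the log2 scale (adjusted p = 0.0061 and 9.80e-04), but did not pass without Dnmt3a replicate 1 (0.54 and 0.26, with differences of -1.08 and -1.12), nor in Tnfr1KO-labelled without its replicates 2 or 3 (0.0894 and 0.0837). Rps29, a ribosomal protein gene, stood at 2906 and 4137 CPM in Dnmt3a and rose by 1.45 in Tnfr1KO-labelled (adjusted p = 0.0413). That call was lost without Dnmt3a replicate 1 (adjusted p = 0.684), without Tnfr1KO-labelled replicates 1, 2 or 3 (0.068, 0.182 and 0.175) and at 5000 UMIs per cell (0.276). Clec11a, a secreted growth factor, was not a named call of either receptor group against MxCre, and its MxCre level is not given here. It stood at 44.0 and 50.9 CPM in Dnmt3a and at 7.09 to 14.9 CPM in the 7 mice of the receptor groups. It fell by 2.30 and 2.01 (adjusted p = 0.0413 and 0.0173), and its adjusted p without Dnmt3a replicate 1 was 0.37 and 0.17. The first call was also lost without Tnfr1KO-labelled replicates 1, 2 or 3 (0.0815, 0.284 and 0.165) and the second without Tnfr2KO replicate 2 (0.055).

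Erythroid commitment genes were mostly positive against Dnmt3a without calls. Of 25 commitment genes, 20 were positive in Tnfr1KO-labelled (median 0.33) and 19 in Tnfr2KO (median 0.36), with 0 called by edgeR and 5 and 4 higher at an unadjusted p. The summed commitment level was 3442 CPM in Dnmt3a replicate 1 and 4160 CPM in replicate 2, which was above all 7 mice of the receptor groups (3339 to 4106 CPM). Of 14 late erythroid genes tested, 12 were positive in Tnfr1KO-labelled (median 0.40) and 8 in Tnfr2KO (median 0.11), and of the 4 globins 4 and 1. None of these was called by edgeR, with 2 late genes higher at an unadjusted p in each. Of 15 stem and multipotent genes, 14 and 13 were negative (medians -0.36 and -0.38), with 0 called and 2 and 3 lower at an unadjusted p. Medians over all genes were -0.0054 and -0.0089. Of the 30 TNF and NF-kB genes tested, 1 passed in Tnfr1KO-labelled (Tnfaip2, 170, 171 and 160 CPM, a rise of 1.14 ± 0.23, adjusted p = 0.0356) and 0 in Tnfr2KO. Tnfaip2 did not pass without Dnmt3a replicate 1 (adjusted p = 0.54) or without Tnfr1KO-labelled replicates 1, 2 or 3 (0.068, 0.182 and 0.159).

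**Figure D5:**
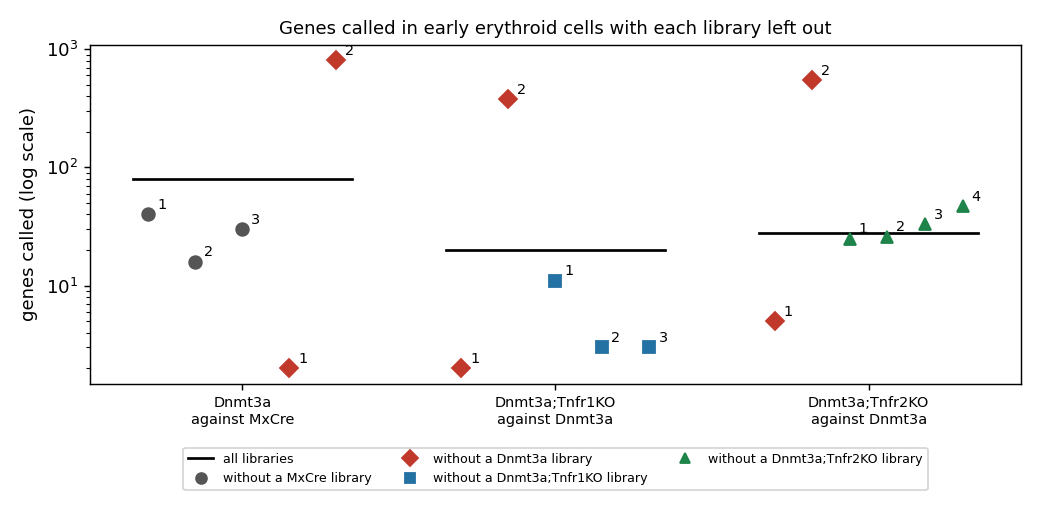
Number of genes called by edgeR (vertical axis, log scale) when 1 library is left out, for Dnmt3a against MxCre and each receptor group against Dnmt3a. The replicate number is at each point, and a line marks the count with all libraries. In Dnmt3a against MxCre the count moves from 80 to 2 without Dnmt3a replicate 1 and to 810 without Dnmt3a replicate 2.

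The Tnfr2KO and Tnfr1KO-labelled groups share no library. Their comparison does not use Dnmt3a values other than for the spread, the low-count filter and the scaling. It called 8 genes (0.0862%), 4 higher (0.0431%) and 4 lower (0.0431%) in Tnfr2KO. With only these 2 groups fitted, 7616 genes were tested and 3 called. Genes without overlap made up 2.65% (higher) and 2.63% (lower) of all tested. Leaving out Tnfr1KO-labelled replicates 1, 2 and 3 gave 2, 1 and 3, and Tnfr2KO replicates 1, 2, 3 and 4 gave 3, 4, 8 and 3. C1qtnf12, a secreted hormone gene (chromosome 4, 155962312 to 155966629), stood at 8.39, 4.97, 12.8 and 13.4 CPM in Tnfr2KO and at 42.5, 39.5 and 42.7 CPM in Tnfr1KO-labelled. The groups did not overlap, and it fell by 2.29 ± 0.28 (adjusted p = 4.72e-04). The call was lost only at 5000 UMIs per cell (adjusted p = 0.76). C1qtnf12 is also a gene of the later stage, at 29.4 CPM in members and 184.5 CPM in Ermap-positive cells over all mice.

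Zfp990, a zinc finger gene (chromosome 4, 145510759 to 145538251), stood at 17.7, 15.7, 55.0 and 35.7 CPM in Tnfr2KO and had no UMI in any Tnfr1KO-labelled or Dnmt3a library. That was at least 25.5-fold above Tnfr1KO-labelled (adjusted p = 0.0026) and 21.7-fold above Dnmt3a (adjusted p = 0.0013). The first call was lost without Tnfr1KO-labelled replicate 2 (adjusted p = 0.136), the second without Dnmt3a replicate 1 (0.0541), and both at 5000 UMIs per cell (0.640 and 0.893). Zfp992 stood at 23.3, 18, 20.5 and 17.9 CPM in Tnfr2KO against 2.36, 6.26 and 5.77 CPM, a rise of 1.84 (adjusted p = 0.0205). Its call was lost in 9 of 16 alternatives, among them leaving out any 1 Tnfr1KO-labelled replicate (adjusted p = 0.0802 to 0.355) or Tnfr2KO replicate 1 (0.123). Zinc finger genes of this kind have near-identical neighbours, so their counts are uncertain. Pusl1, a pseudouridine synthase gene, fell by 1.61 (adjusted p = 0.049), a call lost in 13 of 16 alternatives (adjusted p up to 1.0 without Tnfr1KO-labelled replicate 2) and with 6 of the 7 libraries, all but Tnfr2KO replicate 3, left out singly.

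Position was shared by these calls. Of the 8 genes, 5 lie on chromosome 4, which holds 5.98% of the tested genes and Tnfrsf1b itself (145212368 to 145246870). Zfp990 starts 0.298 Mb, Zfp992 1.24 Mb and C1qtnf12 10.7 Mb from the start of Tnfrsf1b. Against MxCre, 11 of the 29 Tnfr2KO calls lie on chromosome 4, against 1 of 10 for Tnfr1KO-labelled. Against Dnmt3a, 3 of the 28 Tnfr2KO calls lie there (10.7%). The chromosome was looked at after the calls were known. In this design the receptor allele and its chromosomal neighbourhood cannot be told apart.

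Comparisons of the receptor groups with MxCre, which share the 3 MxCre libraries, were added after the data had been seen. Neither uses a Dnmt3a library other than for the spread, the low-count filter and the scaling. Tnfr1KO-labelled against MxCre called 10 genes (0.108%), 7 higher (0.0755%) and 3 lower (0.0323%). Tnfr2KO against MxCre called 29 (0.313%), 14 higher (0.151%) and 15 lower (0.162%). Genes without overlap made up 5.20% (higher) and 5.15% (lower) of all tested in the first, and 3.34% and 3.23% in the second. At an unadjusted p under 0.05, 1.53% of all genes were higher and 1.33% lower in the first, and 2.74% and 1.93% in the second. Tnfr1KO-labelled counts were 6 without MxCre replicate 1 and 4 and 5 without Tnfr1KO-labelled replicates 2 and 3. Tnfr2KO counts were 17, 17 and 18 without MxCre replicates 1, 2 and 3, and 12 without Tnfr2KO replicate 1. Ckm rose by 3.93 ± 0.38 (adjusted p = 1.02e-05) and 3.96 ± 0.36 (adjusted p = 2.96e-06). Gm49980 rose by 3.49 ± 0.41 (adjusted p = 1.54e-04) and 3.82 ± 0.36 (adjusted p = 5.28e-06). The first of these Gm49980 calls was lost at 5000 UMIs per cell (adjusted p = 0.0758) and when libraries with 10 or more members were admitted (0.273).

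Genes of the Dnmt3a comparison with MxCre were also seen here. In Tnfr2KO, Gm43305 stood at 34.5, 29.6, 26.9 and 42.4 CPM, and rose by 5.63 ± 0.57 over MxCre (adjusted p = 5.78e-06), or by 4.41 to 7.36 with 1 MxCre library left out. In Tnfr1KO-labelled it stood at 2.36, 12.5 and 26.5 CPM and rose by 4.49 ± 0.68 (adjusted p = 0.0036), although replicate 1 lay within the MxCre range. Prss50 stood at 6.06, 9.39, 19.2 and 35.7 CPM in Tnfr2KO and rose by 4.54 ± 0.68 (adjusted p = 0.0013). In Tnfr1KO-labelled it stood at 4.72, 9.62 and 10.4 CPM, above every MxCre mouse, with a log2 difference of 3.84 ± 0.80 (adjusted p = 0.0648). Mtus2, at 17.6 to 20.9 CPM in MxCre, had no UMI in Tnfr1KO-labelled, at least 21.6-fold lower (adjusted p = 0.0059, and 0.227 without Tnfr1KO-labelled replicate 2). In Tnfr2KO it stood at 0, 0, 0 and 4.46 CPM, a fall of 4.96 ± 0.67 (adjusted p = 7.55e-04), or of 8.27 without replicate 4 and 4.09 without replicate 2. Both Mtus2 calls were lost by DESeq2 (adjusted p = 1.0) and at 5000 UMIs per cell (1.0 and 0.223).

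C1qtnf12 fell by 2.49 ± 0.26 in Tnfr2KO against MxCre (adjusted p = 6.48e-06), from 49.6, 53.6 and 37.5 CPM. Irf8 rose by 2.42 ± 0.48 in Tnfr1KO-labelled (54.3, 23.6 and 73.8 CPM, adjusted p = 0.0479). With at least 2 Klf1 and 2 Car1 UMIs, where Tnfr1KO-labelled replicate 1 had 17 members and left the fit, it turned to -1.36. The call was lost without MxCre replicates 2 or 3 (adjusted p = 0.202 and 0.114) or Tnfr1KO-labelled replicates 1 or 3 (0.117 and 0.624). Without MxCre replicate 1 the rise was 3.78. In that group all 8 monocyte genes tested were positive, with a median of 1.76. The summed monocyte list was 274, 215 and 315 CPM there, against 61.1 to 153 CPM in MxCre. Of the late erythroid list, 4 of 14 genes fell in Tnfr2KO, all of them globins, which again rest on MxCre replicate 1 (without it, Hba-a2, Hbb-bs and Hbb-bt fell by 2.03, 1.40 and 1.15, with adjusted p = 0.291, 0.154 and 0.639). In Tnfr1KO-labelled against MxCre 0 of 14 passed by edgeR, with 4 lower at an unadjusted p, which are the same 4 globins.

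Cell cycle genes gave few calls. Of 52 G2 and M phase genes, 1 passed in any comparison, Mki67 in Dnmt3a against MxCre. Their summed level ran from 6357 to 10025 CPM over the 12 mice, highest in Dnmt3a replicate 1. Against MxCre, 38 of the 52 were positive in Dnmt3a, 39 in Tnfr1KO-labelled and 44 in Tnfr2KO (medians 0.17, 0.19 and 0.13), with 10, 3 and 3 higher at an unadjusted p. Of 42 S phase genes, 0 passed by edgeR in any comparison, with at most 7 in 1 direction at an unadjusted p (lower, in Tnfr1KO-labelled against Dnmt3a). Their medians lay between -0.22, in Tnfr1KO-labelled against MxCre, where 36 of 42 were negative, and 0.14, in Tnfr2KO against Tnfr1KO-labelled, where 35 of 42 were positive.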

How the data were processed

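The sources of the 14 libraries are described with the results. The authors' deposited matrices hold raw UMI counts per gene and cell barcode, with no normalization, which per the file headers came from Cell Ranger 6.0.0. The submitters' processing notes also name bcl2fastq 2.20.0.422 and the builds GRCm38 and mm10. The counting settings are not given in the sources used here. The files list 32285 genes, of which 78 share a symbol with another. Coordinates come from RefSeq's GRCm38.p6 gene table, which matched 60 of 74 named genes.

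Members were found by the stated rule in raw counts. The members, the gene lists and the tests were chosen with earlier results of these data known. Doublets were scored by neighbours among simulated doublets (30 components, 2000 variable genes, 20 neighbours, 0.8% per 1000 cells). For shares of cells with a UMI, each cell was thinned at random to 5000 UMIs, leaving out shallower cells.

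UMIs were summed over members per library. Libraries with at least 20 members (12 of 14) entered 1 edgeR 4.0.16 model (R 4.3.3) with 4 groups, TMM scaling, filterByExpr (9276 genes kept), the two-sided quasi-likelihood test and Benjamini-Hochberg adjustment within each comparison at 0.05. The method was tested on simulated counts. For Dnmt3a against MxCre, 95.0% of 4-fold and 48.4% of 2-fold changes were recovered over 8988 genes. The simulation gave all genes a common spread and held no library that stood apart, as Dnmt3a replicate 1 did. The recovered shares thus do not measure the power of the real comparison. Levels of single genes are CPM after TMM scaling in genotype comparisons, and CPM of the plain total elsewhere. List sums leave out rule genes. Shares and ratios (1 cell added on each side) were compared by exact two-sided permutation, adjusted over 4 comparisons. Intervals are exact binomial, at 95%.

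Genes were named by a fixed rule: the rule genes, markers and targeted genes, up to 10 called genes per direction with the largest change (10 CPM or more on average in a group, no overlap of libraries), called list genes, leading genes and up to 5 genes of a list. Gm43305 in Tnfr1KO-labelled against MxCre falls outside it and is given because it is named elsewhere. Some genes that met the rule are not reported here. Alternatives were DESeq2 1.42.0, other scaling and filters, the compared groups alone, no doublets, thinning, a stricter rule, a replicate block and each library left out. Those admitting libraries with 10 members, and all for comparisons of the receptor groups with MxCre, were chosen after seeing the data.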

Additional observations from a re-analysis of the deposited data

Results flagged for a closer look

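In the Tnfr2KO group of 4 mice, some single values stood far from the other 3 by Dixon's criterion, which chance alone meets in about 1 of 20 groups (8 of 92 met it here). Replicate 2 had the lowest granulocyte gene sum in members, 2882 CPM against 8635 to 9178 CPM, and the highest sum of stem and multipotent genes, 1611 CPM against 1097 to 1152 CPM. It also had the lowest Vav3 (9.94 CPM) and the highest Hbb-bs (20.2 CPM) and Kcnab2 (42.0 CPM). Replicate 3 had the highest Arhgef28 (6.40 CPM), and replicate 4 the highest Mtus2 (4.46 CPM) and Slc38a5 (23.4 CPM).

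Dnmt3a replicate 3 had 18 members with 374522 UMIs and entered no expression test. Genes named as higher in Dnmt3a than in MxCre lay above every MxCre mouse there in 12 of 14 cases, and 41.2% of all tested genes did. Prss50 was not among the 12, with no UMI there. The same MxCre libraries had chosen these genes, so nothing is read from the count. In CPM of the plain total, Irf8 stood at 131, Atp8b4 at 101, Bcl2 at 82.8, Mki67 at 323 and Gm43305 at 16.0. The anticoagulant gene Tfpi stood at 53.4, the chromatin organiser Satb1 at 26.7, the glutamate receptor gene Gria3 at 13.4, Hist2h2ac at 56.1 and Vav3 at 37.4. Of the 13 genes named as lower, 12 lay below every MxCre mouse there, as did 32.4% of all tested genes, and Mtus2, Hormad2, Smim40 and Slc38a5 had no UMI. These values rest on 18 cells of 1 mouse and were not tested.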

How the results depend on the processing

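No comparison of shares or ratios passed its threshold, but the smallest exact permutation p before adjustment is 0.0571, or 0.0286 for Tnfr2KO against Dnmt3a, so this says nothing about stability. Left-out libraries moved the share differences over -3.29 to -1.53 points (Dnmt3a against MxCre), -0.302 to 1.19 (Tnfr1KO-labelled against Dnmt3a), 0.0113 to 1.44 (Tnfr2KO against Dnmt3a) and -0.398 to 0.937 (Tnfr2KO against Tnfr1KO-labelled). The log2 ratio differences ran over -2.45 to -0.87, 0.73 to 2.31, 0.66 to 2.24 and -0.33 to 0.20 in the same order. Same-numbered libraries did not deviate together from their group means (15 pairs, correlations -0.317 to 0.247, median -0.0686, 4 over 0.1). The 2 Dnmt3a libraries mirror each other in this measure, so the pairs are not independent. Whether the numbers pair the mice thus cannot be told. With a replicate block, the share difference of Tnfr1KO-labelled and Dnmt3a turned to -0.138 and the ratio difference of Tnfr2KO and Tnfr1KO-labelled to 0.0759. The block gave 152, 44, 51, 2, 16 and 23 called genes for, in this order, Dnmt3a against MxCre, each receptor group against Dnmt3a (Tnfr1KO-labelled first), Tnfr2KO against Tnfr1KO-labelled, and each receptor group against MxCre. In that order, against 80, 20, 28, 8, 10 and 29, DESeq2 called 160, 61, 114, 4, 4 and 13. With no low-count filter the counts were 360, 168, 209, 69, 87 and 120. At 5000 UMIs per cell they were 0, 1, 3, 0, 3 and 6, and with at least 2 Klf1 and 2 Car1 UMIs 5, 4, 6, 1, 6 and 13. Without doublets they were 197, 94 and 68 in the comparisons with a Dnmt3a library. With only the compared groups fitted they were 128, 52 and 3 for Dnmt3a against MxCre, Tnfr1KO-labelled against Dnmt3a and Tnfr2KO against Tnfr1KO-labelled. Admitting libraries with 10 members, Dnmt3a replicate 3 among them, gave 119, 13, 16, 4, 6 and 17 in the order given first. For Dnmt3a against MxCre, 60 of the 80 calls were among the 119. With 1 library left out the counts ran from 2 to 810, 2 to 379, 5 to 549, 1 to 8, 4 to 11 and 12 to 24. The causes of these moves were not tested, beyond the fewer cells and counts that thinning and the stricter rule leave. Irf8 turned to -3.02 in Dnmt3a and -1.36 in Tnfr1KO-labelled against MxCre under the stricter rule, and Hist1h3c to 0.32 in Tnfr1KO-labelled against Dnmt3a at 5000 UMIs. With a library left out, 258 of 597 log2 differences of called named genes lost the call and none turned. Of 301 that were not called, 10 gained a call and 19 turned in sign without one. The Dnmt3a group had 2 libraries tested, and only replicate 2 at 5000 UMIs per cell and under the stricter rule. The stricter rule also left out Tnfr1KO-labelled replicate 1, with 17 members.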

Other observations

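A few genes of the members stood far from the other mice in 1 library. In Tnfr1KO-labelled replicate 1, Egr1 stood at 560 CPM against 19.5 to 151 CPM in the other 11 mice tested, and Nfkbia, the NF-kB inhibitor that NF-kB itself induces, at 569 CPM against 31.0 to 99.3 CPM. Its summed TNF receptor and NF-kB genes came to 1711 CPM against 885 to 1057 CPM. The other 2 Tnfr1KO-labelled mice lay within the range of the remaining groups, and no NF-kB gene other than Tnfaip2 was called in that group. Ifitm1 stood at 129 CPM in Dnmt3a replicate 1, against 683 CPM or more in the other 11.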
